A study of Homo sapiens with 16 samples.

Results

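Adrenomedullin is a secreted vasoactive peptide, and its messenger RNA was followed here together with those of its relative adrenomedullin 2 and of the proteins that form their receptors. The 5 genes were ADM, ADM2, CALCRL, RAMP1 and RAMP2, taken by symbol from a gene table of 63187 genes, and all 5 passed the filter on low counts that left 19530 genes for testing. The study sequenced RNA of SK-N-BE(2), a neuroblastoma line of human origin whose MYCN gene is amplified, in 4 groups with 4 libraries each. One group carries the label wild type (WT), and the other 3 were each transfected with a different form of HIF-2α, the oxygen-regulated transcription factor that EPAS1 encodes. FL was the full-length protein, and NCTAD and cIDR were the forms that the design text writes ΔN-CTAD and Δc-IDR, while the sample labels carry no Δ. All cells grew at 21% oxygen, 5% CO2 and 37 °C with 10% serum, so no group was grown at low oxygen. The vector, the time after transfection, the residues concerned and any empty vector in the WT cells are not stated in the labels, so transfection as such and the HIF-2α forms cannot be told apart in a comparison with WT.

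The replicate number of a library is also its batch, 1 to 4, in the labels, so each batch holds 1 library of each group. Nothing in the labels says more about how the 4 libraries of a group were grown, and p-values measure the spread between these libraries. Library totals were 38.6 to 56.1 M estimated counts. EPAS1, the transfected gene, was 13.0 to 28.1 CPM (counts per 1 M counts, on library sizes scaled by TMM) in the WT libraries and 1320 to 5852 CPM in the 12 transfected libraries, as labelled. The library names in the deposited tables call the line BE2c, the FL libraries wild type and the WT libraries control, and the groups here follow the sample labels. The 10 adrenergic neuroblastoma markers, among them HAND2 and DBH, all passed the filter, and their summed level was 6943 to 9017 CPM. Batch 2 stood apart from the rest: with group and batch in the fit, 53.9% of the tested genes differed between batch 2 and the mean of batches 1, 3 and 4. Called differences from WT, and those of the 5 genes, are therefore given also without batch 2.

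Adrenomedullin and adrenomedullin 2 (also called intermedin) belong to the calcitonin peptide family and are cut from longer precursors, and adrenomedullin ends in an amide that its receptor needs. Both signal through the calcitonin receptor-like receptor, the product of CALCRL, which reaches the cell surface only together with a receptor activity-modifying protein (RAMP). With RAMP1 the pair forms the receptor for calcitonin gene-related peptide (CGRP), with RAMP2 the main adrenomedullin receptor and with RAMP3 a further adrenomedullin receptor, and all of them act chiefly through Gs and cyclic AMP. ADM is a classical gene induced by low oxygen and by HIF factors, and adrenomedullin is best known from blood vessels and from the adrenal medulla, the tissue from whose tumours it was first isolated.

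The genes lie apart in GRCh38, by the GENCODE 29 annotation: ADM at chr11:10304680-10307397 on the plus strand, ADM2 at chr22:50481556-50486440 on the plus strand, CALCRL at chr2:187343129-187448460 on the minus strand, RAMP1 at chr2:237858893-237912114 on the plus strand and RAMP2 at chr17:42758447-42763041 on the plus strand. RAMP2 overlaps RAMP2-AS1 on the other strand, which had 31 to 54 counts, and the strand setting of the counting is not stated, so reads of this pair may have been shared. HIF factors recognise a short core that reads ACGTG or GCGTG. Both forms were searched on both strands in the 250 bases before the start site in the RefSeq promoter sequences (GRCh38.p14), which held 3 of the 5 genes. ADM and ADM2 each had 1 match, and CALCRL had none. The 30 bases around each match are shown because ADM and ADM2 are the 2 ligand genes among the 5, with the matched core in capitals, 5′ to 3′ on the plus strand.
ADM: gagcaggagcgcGCGTGgctgaggaaagaa
ADM2: aaccccgctgcaGCGTGgggaagtccggcc
The ADM stretch is chr11:10304960-10304989, its core begins 101 bases before the RefSeq start, and the stretch falls in the 5′ untranslated exon of 1 of the 8 annotated ADM transcripts, which starts further upstream. The ADM2 stretch is chr22:50481306-50481335, its core begins 225 bases before the RefSeq start, and neither annotated ADM2 transcript reaches it. Of 35116 promoter windows of the same length, 43.2% held at least 1 such core, so a match by itself sets neither gene apart.

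The first question was whether the ligand genes differed between cells with a HIF-2α form and WT cells. ADM, the adrenomedullin precursor gene, was higher in all 12 transfected libraries than in the WT cells of their own batch, by 1.17-fold to 3.75-fold. In the WT cells it was 0.960, 1.51, 1.47 and 1.29 CPM in batches 1 to 4, from 46 to 81 counts. In the FL cells it was 2.52, 4.82, 1.89 and 1.51 CPM in the same order. The NCTAD cells had 2.83, 4.97, 2.52 and 3.29 CPM, and the cIDR cells 3.33, 5.65, 3.49 and 2.55 CPM, so the transfected libraries rested on 76 to 321 counts. The WT and transfected libraries did not overlap, but only narrowly: the lowest transfected library, FL in batch 4, was at 1.513 CPM and the highest WT library, in batch 2, at 1.508 CPM. Such a separation upward of all transfected libraries occurred in 0.0973% of the tested genes, and a higher mean of the 3 forms than WT in 4 of 4 batches in 7.86% of them.

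**Figure D1:**
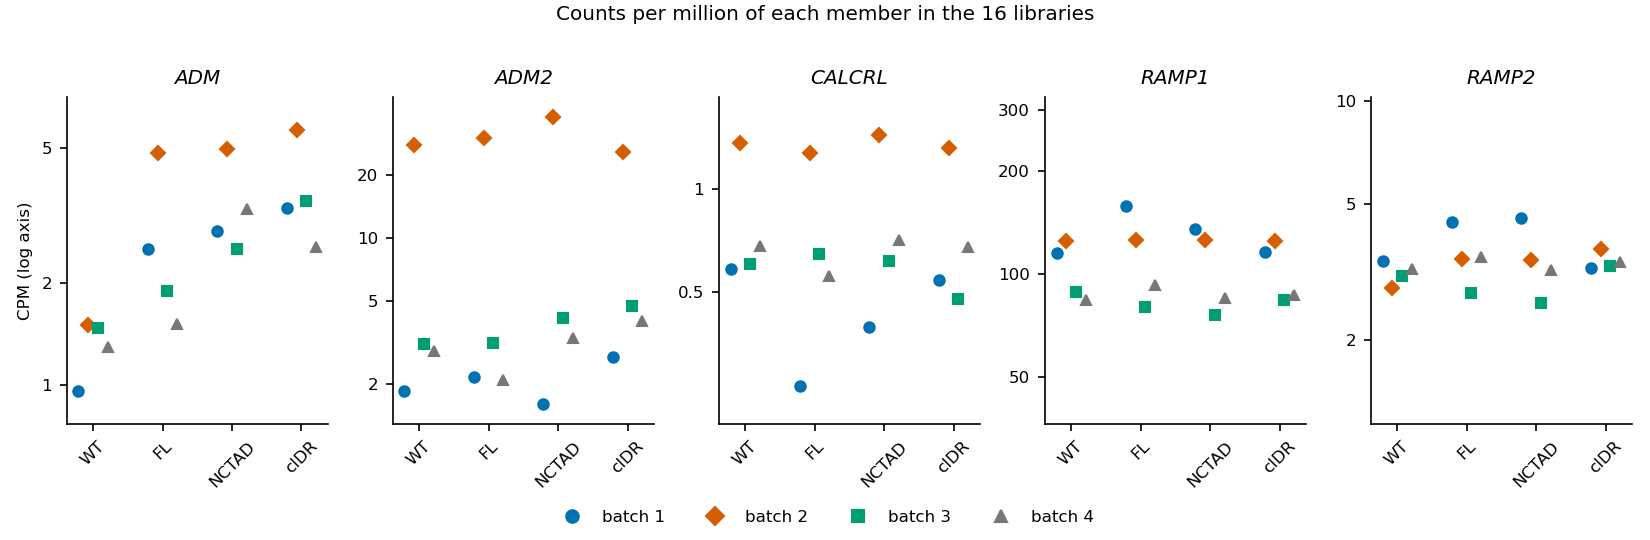
Each point is 1 library, with its level in CPM on a log axis, the group along the horizontal axis and the batch as colour and shape. ADM lies lowest in the WT cells, and the 4 batch 2 libraries of ADM2 lie at 25.6 to 37.8 CPM, above all others at 1.60 to 4.69 CPM.

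Within each batch the ADM level was lowest in the WT cells and next lowest in the FL cells. The order was WT, FL, NCTAD, cIDR in batches 1, 2 and 3, and in batch 4 NCTAD stood above cIDR. The fold over the WT library of the same batch was 1.17 to 3.20 for FL, 1.71 to 3.29 for NCTAD and 1.97 to 3.75 for cIDR. The mean level was 1.31 ± 0.25 CPM for WT (SD, n = 4), 2.69 ± 1.48 for FL, 3.40 ± 1.09 for NCTAD and 3.75 ± 1.33 for cIDR.

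In the edgeR quasi-likelihood fit with group as its only term, the log2 fold change of ADM was 1.04 ± 0.35 (SE) for FL against WT, 1.38 ± 0.35 for NCTAD, 1.52 ± 0.35 for cIDR and 1.31 ± 0.30 for the mean of the 3 forms. None of the 4 passed the threshold, a Benjamini-Hochberg adjusted p under 0.05 over the 19530 genes, with the adjusted p at 0.551 for the mean of the 3 forms and higher for each single form. That fit called 0 of the 5 genes in each of these comparisons, beside 0.0102%, 0.0256%, 0.0102% and 0.0154% of all genes in the same order, and ADM alone was under an unadjusted p of 0.05, as were 1.14%, 1.42%, 1.37% and 1.54% of all genes. With the batch as a replicate block, the call changed. ADM rose by 1.34 ± 0.22 on the log2 scale with NCTAD (edgeR adjusted p = 0.00861), by 1.47 ± 0.22 with cIDR (adjusted p = 0.00417) and by 1.25 ± 0.19 for the mean of the 3 forms (adjusted p = 0.00432). The block called 0.456%, 0.486% and 0.497% of all genes in these comparisons. For FL the blocked value was 0.94 ± 0.22 (95% interval 0.44 to 1.43) and did not pass (adjusted p = 0.223), beside 0.102% of all genes called. A test for any difference between the 4 groups called none of the 5 genes by group (0.0102% of all genes) and ADM with the block (adjusted p = 0.0155, 0.425% of all genes).

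The ADM calls needed the batch term, another tool or the omission of batch 2, without which the fit by group called ADM with cIDR (adjusted p = 0.0472). DESeq2 without a block called ADM with cIDR (adjusted p = 0.041) and for the mean of the 3 forms (adjusted p = 0.010), and DESeq2 with the block also called FL (adjusted p = 0.0181). The blocked call for NCTAD was lost without WT replicate 1 (adjusted p = 0.0642), WT replicate 2 (0.0518) or NCTAD replicate 4 (0.0586), while those for cIDR and for the mean of the 3 forms held in all single-library omissions. Without the whole of batch 1 or of batch 2 the blocked adjusted p of the mean of the 3 forms was 0.0856 and 0.102, and the log2 fold change 1.15 and 1.05. Without batch 2 the blocked values of the single forms were 0.63 for FL, 1.20 for NCTAD and 1.32 for cIDR, none of them called. The FL value depended most on 1 library: without FL replicate 2 it was 0.59 in the fit by group.

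The 3 HIF-2α forms were then compared with each other. With the block, ADM differed by 0.53 ± 0.21 on the log2 scale between cIDR and FL (95% interval 0.067 to 1.00), by 0.40 ± 0.21 between NCTAD and FL (interval −0.062 to 0.87) and by 0.13 ± 0.20 between cIDR and NCTAD (interval −0.33 to 0.59). None passed the threshold (adjusted p of at least 0.996), so the order of neighbouring forms was not resolved beyond the spread between libraries. The value between NCTAD and FL ran with the block from 0.24 without FL replicate 4 to 0.59 without FL replicate 2, and was 0.18 without batch 4. In these 3 comparisons 0 of the 5 genes were called by the fit with or without the block, beside 0% of all genes without it and 0.0307%, 0% and 0.00512% with it. At an unadjusted p under 0.05 the fit by group had none of the 5 genes, beside 0.906%, 0.886% and 0.609% of all genes. With the block, ADM between cIDR and FL had an unadjusted p of 0.021 in the edgeR fit across all genes, and 3.68% of all genes were under 0.05 there.

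The mean level of EPAS1 itself was 2609 ± 906 CPM in the FL cells (SD, n = 4), 2851 ± 1330 in the NCTAD cells and 4484 ± 1740 in the cIDR cells. On the TPM scale, which divides by transcript length, the means were 2551, 3959 and 4986 in the same order. Differences of EPAS1 between the forms were not tested. In batches 1, 3 and 4 its order in CPM was FL, NCTAD, cIDR, which in batches 1 and 3 was also the order of ADM. In batch 2 EPAS1 was lower in NCTAD, at 1320 CPM, than in FL, at 2001 CPM. The part of the EPAS1 level in the differences of ADM between forms was not tested. Across batches, EPAS1 and ADM did not follow the same order in the transfected cells. In the transfected cells of batch 2, EPAS1 was 0.712 (FL), 0.393 (NCTAD) and 0.417 (cIDR) times the mean of the other batches of the same group, whereas ADM there was 2.44, 1.73 and 1.81 times that mean. In the WT cells of batch 2 both genes were above that mean, EPAS1 at 1.89 times and ADM at 1.21 times. Over the 16 libraries, log2 CPM of ADM and EPAS1 had a Pearson r of 0.692, and of 0.841 after the mean of each batch was subtracted. These values are descriptions, since the libraries share batches and groups and EPAS1 separates WT from the rest. The genes with the most similar pattern to ADM were BHLHE40 (r = 0.918), a transcriptional repressor known to respond to hypoxia, SLC18A1 (0.902), a vesicular monoamine transporter, CRH (0.872), the corticotropin-releasing hormone gene, DBH (0.865), which makes noradrenaline, and RGS4 (0.862), a regulator of G protein signalling. With batch means subtracted they were NPRL3, INHA, TNFRSF10B, EGFL7 and PFKL, with r from 0.902 to 0.923.

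ADM2, the second ligand gene, varied mainly with the batch. In batch 2 the WT cells had 27.7 CPM, FL 30.1, NCTAD 37.8 and cIDR 25.6, from 1453 to 1872 counts. The WT cells of batches 1, 3 and 4 had 1.84, 3.09 and 2.85 CPM, and the FL cells 2.16, 3.14 and 2.07 CPM. In the NCTAD cells it was 1.60, 4.11 and 3.31 CPM and in the cIDR cells 2.68, 4.69 and 3.97 CPM. Each batch 2 library was thus far above the other libraries of its group, and there was no overlap. The fold over the mean of those other libraries was 10.7 for WT, 12.3 for FL, 12.6 for NCTAD and 6.77 for cIDR.

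Batch 2 was singled out with earlier results of these data known, and it is 1 batch, so the tests below show its distance from the other 3 batches relative to the spread between libraries. ADM2 was higher there by 3.42 ± 0.12 on the log2 scale (edgeR with group and batch, adjusted p = 1.93e-11), the 46th highest value of the 19530 genes. Batch accounted for 96.8% of the variance of its log2 CPM and group for 1.13%, beside medians of 53.8% and 7.85% over all tested genes. Against the WT library of the same batch, the transfected libraries ranged from 0.726-fold to 1.52-fold, with 9 of 12 above 1. The mean of the 3 forms was above WT in 4 of 4 batches, as in 7.86% of all genes, by 0.19 ± 0.11 on the log2 scale (SD, n = 4). The mean of the 3 forms differed from WT by 0.18 ± 0.96 in the fit by group and by 0.21 ± 0.14 with the block (95% interval −0.12 to 0.53, adjusted p = 0.865). Without batch 2 the value was 0.22 ± 0.28 by group and 0.20 ± 0.16 with the block. The genes most similar to ADM2 over the 16 libraries were ARHGEF2, AKNA, STC2, P4HA2 and CDC42EP1, with r from 0.982 to 0.987. After subtraction of batch means the highest r was 0.826, with FOXD1.

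ADM was also higher in batch 2, by 0.84 ± 0.16 on the log2 scale (adjusted p = 0.000472). Its batch 2 libraries overlapped the others, because the WT library of batch 2, at 1.51 CPM, was only 1.21 times the mean of the other WT libraries. The rise of ADM with the HIF-2α forms was 0.70 ± 0.38 larger in batch 2 than in the other batches, which did not pass the threshold (95% interval −0.17 to 1.58, unadjusted p = 0.0868). No such difference was called for any of the 5 genes, beside 0.00512% of all genes, and none was under an unadjusted p of 0.05, beside 1.56%. Group accounted for 63.4% of the variance of ADM and batch for 24.7%, the reverse of the order for ADM2.

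**Figure D2:**
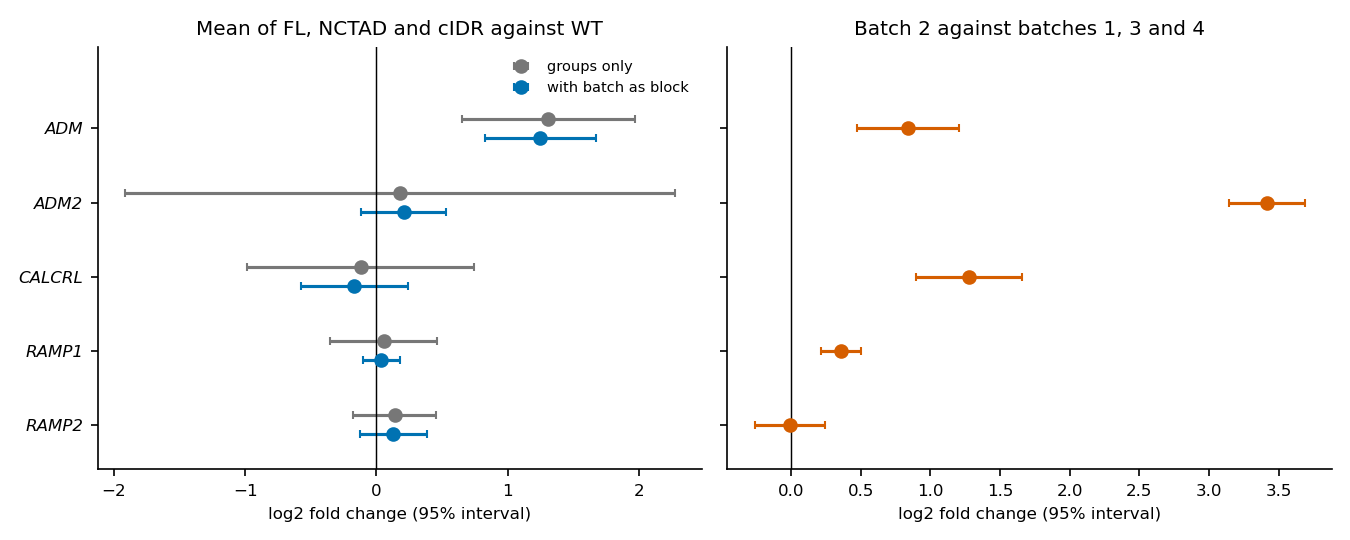
Points are log2 fold changes from edgeR with 95% intervals, on the left for the mean of the 3 HIF-2α forms against WT without and with the batch as a block, on the right for batch 2 against the other batches. On the left ADM is the gene whose intervals lie above 0, and on the right ADM2 is highest at 3.42 and RAMP2 lies near 0.

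CALCRL, the receptor shared by both ligands, was the least abundant of the 5 genes, with 11 to 75 counts per library. In batch 2 the WT cells had 1.36 CPM, FL 1.27, NCTAD 1.43 and cIDR 1.32. In the other 12 libraries it ranged from 0.267 CPM, in FL of batch 1, to 0.710 CPM, in NCTAD of batch 4. The 2 sets did not overlap on the CPM scale. At these depths counting error alone is wide: the 11 counts of FL in batch 1 have a 95% Poisson interval of 5.49 to 19.7 counts. CALCRL was 1.28 ± 0.17 higher in batch 2 on the log2 scale (adjusted p = 1.43e-05). On the scale log2(TPM + 0.1) this value was 0.92 and on log2(TPM + 1) 0.31, both called by limma. In the cIDR cells the TPM of batch 2 was only 1.22 times that of the other batches, where the CPM was 2.33 times. The sets therefore overlapped in TPM, with 0.366 for cIDR in batch 2 beside 0.451 for cIDR and 0.393 for WT in batch 4.

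The HIF-2α forms left no called difference in CALCRL, whose mean over the 3 forms was below WT in 4 of 4 batches, as in 6.85% of all genes. The mean of the 3 forms against WT was −0.12 ± 0.40 in the fit by group and −0.17 ± 0.18 with the block (95% interval −0.58 to 0.24, adjusted p = 0.923), and −0.24 with the block and without batch 2. With the block it was −0.055 without batch 1 and −0.048 without WT replicate 1. The lowest ratio to WT of the same batch, 0.457 in FL of batch 1, and the highest, 1.07 in FL of batch 3, came from the same form.

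RAMP1, the partner that makes the CGRP receptor, was the most abundant of the 5. It was 115, 125, 88.2 and 84.0 CPM in the WT cells of batches 1 to 4 and 158, 126, 80.0 and 92.7 CPM in the FL cells. The NCTAD cells had 135, 125, 76.0 and 85.3 CPM, and the cIDR cells 115.5, 124.5, 83.6 and 86.7 CPM. In each group batches 1 and 2 were above batches 3 and 4, a division seen in the values and not tested. Batch accounted for 89.1% of the variance of RAMP1. Batch 2 was 0.36 ± 0.06 above the mean of the other batches on the log2 scale (adjusted p = 0.000193), a value that was 0.57 without batch 1 and 0.23 without batch 3. The mean of the 3 forms differed from WT by 0.06 ± 0.19 in the fit by group and by 0.04 ± 0.06 with the block (95% interval −0.11 to 0.18, adjusted p = 0.955), and by 0.03 with the block and without batch 2.

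RAMP2, the partner that makes the main adrenomedullin receptor, was not called in any of these edgeR comparisons. It was 3.40, 2.85, 3.09 and 3.23 CPM in the WT cells of batches 1 to 4 and 4.42, 3.45, 2.75 and 3.50 CPM in the FL cells. In the NCTAD cells it was 4.55, 3.43, 2.57 and 3.21 CPM, and in the cIDR cells 3.25, 3.70, 3.30 and 3.39 CPM. All 4 groups overlapped, and no batch was set apart. Its difference in batch 2 was −0.01 ± 0.11 on the log2 scale (95% interval −0.26 to 0.25, adjusted p = 0.968), so among the 5 genes RAMP2 was the one not called there. The mean of the 3 forms against WT was 0.14 ± 0.15 by group and 0.13 ± 0.11 with the block (95% interval −0.13 to 0.39, adjusted p = 0.900), and 0.06 with the block and without batch 2.

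In all, 4 of the 5 genes were higher in batch 2 by the test, beside 27.7% of all genes called higher and 26.1% called lower. On the CPM scale the batch 2 libraries lay above all others for ADM2 and CALCRL, as they did for 14.4% of all genes. As the bulk RNA of a culture was measured, more cells that express a gene and more RNA per cell cannot be told apart.

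Levels were compared between genes on the TPM scale, which divides by transcript length. CALCRL was the lowest and RAMP1 the highest of the 5 in all 16 libraries. In the 12 libraries of batches 1, 3 and 4 the order from low to high was CALCRL, ADM2, ADM, RAMP2, RAMP1 without exception. In batch 2, ADM2 stood above ADM in all 4 libraries, by 1.44-fold to 5.83-fold, and above RAMP2 in WT, FL and NCTAD. In the other 12 libraries the ratio of ADM2 to ADM was 0.166 to 0.683.

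**Figure D3:**
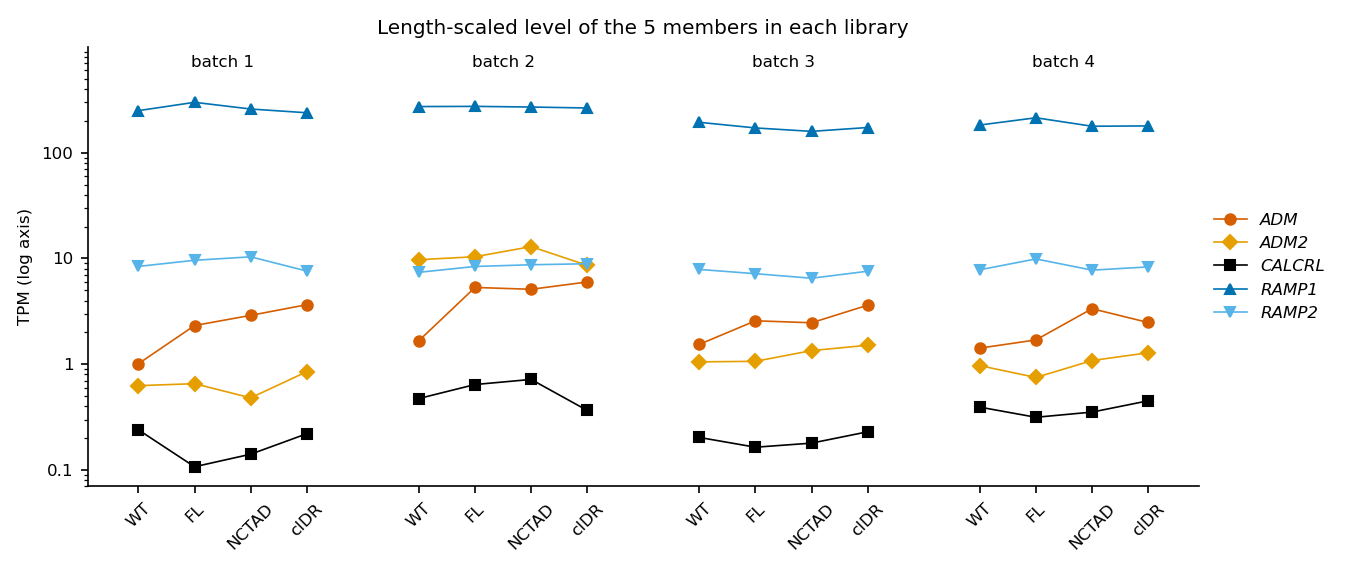
Levels in TPM on a log axis, grouped by batch and within each batch in the order WT, FL, NCTAD and cIDR, with lines joining the libraries of a batch. RAMP1 lies at the top and CALCRL at the bottom of every library, and ADM2 lies above ADM only in batch 2.

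The 2 accessory genes were far from equal. RAMP1 was 159 to 299.9 TPM and RAMP2 6.50 to 10.4 TPM, so RAMP1 exceeded RAMP2 by 21.5-fold to 36.9-fold. CALCRL was 0.107 to 0.718 TPM, and RAMP1 exceeded it by 377-fold to 2795-fold. The ratio of RAMP2 to CALCRL was 12.1 to 24.4 in batch 2 and 18.4 to 89.6 in the other batches, which overlap. RAMP3, the third accessory gene, had 1 count in 1 library, FL in batch 1, and 0 in the other 15, and a count of 0 has a 95% Poisson interval of up to 3.69 counts per library. Which receptor proteins these messages gave was not measured.

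The other ligand and receptor genes of the family were scarce, and CRCP, which was listed with them, was not. Of the 7 further genes listed for calcitonin family ligands and receptors, 3 passed the filter: CALCB, which encodes the beta form of CGRP, ADM5, and CRCP, which encodes a protein linked to CGRP receptor signalling. CALCB had 6 to 70 counts, ADM5 25 to 53 and CRCP 3227 to 5330, or 77.4 to 99.2 CPM. CALCA, the gene of calcitonin and the alpha form of CGRP, had 0 to 5 counts, and IAPP (amylin) and CALCR (calcitonin receptor) had none in any library. None of the 3 tested genes was called for the mean of the 3 HIF-2α forms against WT, with or without the block, and their median log2 fold change was 0.08 in both fits, beside 0.01 over all genes. In batch 2 CALCB was higher, by 1.37 ± 0.22 (adjusted p = 0.00011), 1 of the 3 beside 27.7% of all genes. ADM5 and CRCP were not called there, at −0.51 ± 0.21 and 0.13 ± 0.05. Of the other receptors described for adrenomedullin or its relatives, ACKR3, a scavenger receptor, had 0 to 3 counts, and GPR182 and MRGPRX2 had none.

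The genes that process and break down the peptides were better represented. PAM, the enzyme that forms the terminal amide, was 85.0 to 165 CPM, and the neutral endopeptidase gene MME, which breaks peptides down, had no count in any library. Of the 8 genes of this list 6 were tested, and none was called in any comparison of a HIF-2α form with WT, with or without the block. In batch 2, 4 of the 6 were higher and 1 lower, beside the 27.7% and 26.1% of all genes given above. PAM was higher there by 0.49 ± 0.06, the prohormone convertase PCSK1 by 0.51 ± 0.09 and the carboxypeptidase CPE by 0.81 ± 0.13. FURIN, another convertase, fell by 0.23 ± 0.06. Of the 14 tested Gs and cyclic AMP genes, 1 was called with NCTAD under the block and none for FL, cIDR or the mean of the 3 forms. That gene was GNAS, the Gs alpha subunit, at 0.29 ± 0.06 (adjusted p = 0.0359), beside 0.456% of all genes called with NCTAD. Without batch 2 it was 0.26 ± 0.06 with the block and was not called (adjusted p = 0.323). In batch 2, 4 of the 14 were higher, GNAS, ADCY7, ARRB1 and ARRB2, and 5 lower, ADCY9, PRKACA, PRKACB, PRKAR2B and CREB1, beside 27.7% and 26.1% of all genes.

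For reference, 12 known hypoxia genes, chosen with earlier results of these data known, were counted in the same fits. With the block, 1 of the 12 was higher with FL, 6 with NCTAD and 8 with cIDR, beside 0.0717%, 0.42% and 0.456% of all genes called higher, and without it none was called. Without batch 2, the blocked counts were 2, 5 and 4 of the 12, beside 0.0681%, 0.314% and 0.23% of all genes called higher. Their median log2 fold change for the mean of the 3 forms was 0.46 with the block, beside 1.25 for ADM and 0.01 over all genes. In batch 2, 11 of the 12 were higher, beside 27.7% of all genes, with a median of 1.38, beside 0.84 for ADM, 3.42 for ADM2 and 0.03 over all genes.

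Markers of endothelial cells, the cells best known for CALCRL with RAMP2, were near the floor. Of 8 such markers 2 were tested, CDH5 with 1 to 49 counts and VWF with 4 to 77, while PECAM1 had 0 to 3, TIE1 0 to 1, TEK 0 to 1, CLDN5 0 to 6, KDR 0 to 11 and ESAM 1 to 14. Their summed level was 0.188 to 1.30 CPM for WT, 0.637 to 2.37 for FL, 0.652 to 1.97 for NCTAD and 0.700 to 2.45 for cIDR. In batch 2 it was 1.30 to 2.45 CPM, above the 0.188 to 1.20 CPM of the other batches, and CDH5 and VWF were both higher there by the test. VWF was also called with cIDR under the block (1.65 ± 0.34, adjusted p = 0.0439), beside 0.456% of all genes called higher, and was not called without batch 2 (2.15 ± 0.44, adjusted p = 0.136). For the mean of the 3 forms the median log2 fold change of CDH5 and VWF was 1.15 by group and 1.35 with the block. It was 0.01 over all genes in both fits, and neither marker was called. The part of endothelial cells in the ADM, ADM2 and CALCRL values was not tested. Markers of mesenchymal neuroblastoma cells and fibroblasts summed to 400.4 to 478 CPM over all libraries. Most of this sum came from THY1, at 260 to 388 CPM, and PDGFRB, at 63.0 to 134 CPM. CD44, FN1 and COL1A1 were at most 8.59 CPM, and PRRX1, FOSL1 and COL1A2 had at most 10 counts in a library. Of the 8 markers 5 were tested, and none was called for the mean of the 3 forms. In batch 2 all 5 were called, beside 53.9% of all genes, COL1A1, PDGFRB and FN1 higher and CD44 and THY1 lower. Of the 10 adrenergic markers, DBH and TH, both enzymes of catecholamine synthesis, were higher with NCTAD, with cIDR and for the mean of the 3 forms under the block, by 0.49 ± 0.06 and 1.05 ± 0.15 for the mean (adjusted p = 0.000481 and 0.00289), beside 0.451% of all genes called higher. Without batch 2 these calls held, except that of TH with cIDR (1.17 ± 0.23, adjusted p = 0.0995). In batch 2, 4 of the 10 were higher, DBH and TH among them, and 4 lower, again beside 27.7% and 26.1%. The part of these marker differences in the ADM, ADM2 and CALCRL values was not tested.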

How the data were processed

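RNA-seq gave 16 libraries. The submitters' processing notes name fastp, STAR, Salmon and featureCounts, with no versions, and the build GRCh38. The estimated counts per gene were deposited by the authors as Salmon output, with no scaling for depth. The TPM values were also deposited by the authors and are scaled for transcript length and depth. The annotation release and the strand setting are not given in the sources used here.

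Estimated counts, 15.5% of them not whole within 1e-09, were rounded. Genes were filtered with filterByExpr by group and tested with edgeR 4.0.16 (quasi-likelihood, TMM) in R 4.3.3, with group as the only term, or with group and batch for the batch 2 contrast, which sets batch 2 against the mean of the others. P-values were Benjamini-Hochberg adjusted over all 19530 genes, with calls under 0.05. SE is the log2 fold change over the root of the F statistic. Log2 CPM used a prior count of 2. limma 3.58.1 on log2(TPM + 1) and log2(TPM + 0.1) and DESeq2 1.42.0 were alternatives. The biological coefficient of variation was 0.245 without and 0.108 with the batch term. The script was tested on simulated data. Figures used matplotlib 3.10.9.

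The labels give the replicate number as the batch, so the numbers pair the libraries. Over genes, the departures of log2 CPM from group means correlated at a mean r of 0.308 (0.0674 to 0.712) between libraries of the same batch and of different groups, and at −0.0945 between libraries of different batches. Replicates differed beyond counting noise (lowest chi-square per degree of freedom 6.89), so none was counted as a repeat. The 5 genes, the gene lists and batch 2 were chosen with earlier results of these data known. Besides the 5 genes, the rule named EPAS1, list genes that were called or without counts, and the 5 genes with a mean log2 CPM of at least 1 most correlated with each of them. The counts of list genes without batch 2 were added after the data were seen. Results of some listed genes are not reported here. Poisson intervals cover counting error only.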

Additional observations from a re-analysis of the deposited data

Results flagged for a closer look

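In 5 of the 20 sets of 4 libraries tested, 1 library stood far from the other 3 of its group by Dixon's test at the 95% level, which chance gives in about 1 of 20 sets. The sets share the same 16 libraries and are not independent, so the rate of 1 in 20 is no test of an excess. All 5 of the far libraries were from batch 2. For ADM2 they were WT replicate 2 at 27.7 CPM, FL replicate 2 at 30.1 CPM, NCTAD replicate 2 at 37.8 CPM and cIDR replicate 2 at 25.6 CPM, where the nearest libraries of the same groups had 3.09, 3.14, 4.11 and 4.69 CPM. For CALCRL it was WT replicate 2 at 1.36 CPM, with the nearest WT library at 0.681 CPM.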

How the results depend on the processing

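The number of the 5 genes called was 4 for batch 2 under every alternative run, and 0 for the comparisons between forms and for the batch 2 difference of the construct effect. For FL against WT it was 0, and 1 with DESeq2 and the replicate block. With the replicate block it was 1 for NCTAD, cIDR, the mean of the forms and any difference between groups (edgeR and DESeq2), the gene being ADM. It was also 1 with DESeq2 without the block for cIDR and for the mean of the forms, and for cIDR without batch 2 and without the block. With the block and without batch 3 or without batch 4 it was 1 for NCTAD, cIDR and the mean of the forms, and for any difference it was 1 without batch 4 and 0 without batch 3. Without batch 1 or 2 and with the block it was 0 in these comparisons. Leaving out 1 library, it was 0 for NCTAD, cIDR, the mean of the forms and any difference in every fit without the block. With the block it was 1 in every such fit for cIDR and the mean of the forms. It ran from 0 to 1 for NCTAD and any difference with the block. Over all genes, calls for FL, NCTAD, cIDR, the mean of the forms and any difference were 2, 5, 2, 3 and 2 by group and 20, 89, 95, 97 and 83 with the block, and 58, 168, 156, 182 and 190 with DESeq2 and the block.

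Values that changed sign were not called in any fit, and the cause was not tested. The RAMP1 value for the mean of the forms was −0.023 on both TPM scales, −0.024 without batch 1 and −0.029 without batch 1 with the replicate block. RAMP2 in batch 2 was 0.022 with at least 10 counts in every library, 0.029 and 0.025 on the TPM scales with pseudocounts of 0.1 and 1, and 0.11 without batch 1. With 1 library left out, ADM between cIDR and NCTAD ran from −0.12 to 0.38 and RAMP2 in batch 2 from −0.067 to 0.050. For the mean of the forms, ADM2 ran from −0.47 to 1.96, CALCRL from −0.28 to 0.26 and RAMP1 from −0.031 to 0.16, and with the replicate block from −0.023 to 0.081. On log2(TPM + 1), ADM was 0.65, 0.86 and 1.00 for FL, NCTAD and cIDR against WT. Without WT replicate 2 or without batch 2 the batch 2 difference of the construct effect could not be fitted, nor the batch 2 contrast without batch 2. Among the 5 genes, fitted fold changes between single groups are reported for ADM alone. Counts of 11 to 75 limit CALCRL, and 46 to 81 limit ADM in WT.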

Other observations

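Over the 16 libraries, which share batches and groups, the log2 CPM of RAMP1 was most similar to that of RAC3, CAPZB, RACK1, CKB and FDPS, with Pearson r from 0.972 to 0.980. After batch means were subtracted the nearest genes were SSU72, DHRS13, SAP18, POLR2I and RPL11, with r from 0.942 to 0.967. RAMP2 was most similar to NDUFB8, a subunit of respiratory complex I, with r of 0.912 before and 0.903 after batch means were subtracted. CALCRL was below the level set for such a comparison, a mean log2 CPM of 1.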
